A study of Mus musculus with 23 samples.

Results

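The genes described are 7 neurotrophic factor ligands, Gdnf, Artn, Nrtn, Bdnf, Ntf3, Ntf5 and Cntf, chosen by symbol as factors that support the survival and growth of axons. They are 7 of the 43068 genes listed for the crush libraries and of the 22880 genes listed for the libraries of the inducible mutants. Total RNA of mouse sciatic nerves (SNs) on a C57BL/6 background was sequenced. In the crush experiment, wild-type males aged 2 months had 1 SN crushed at the sciatic notch, and the piece distal to the injury was taken 3 days post crush (dpc, n = 4). Contralateral nerves were those of operated mice (n = 4), so that crushed and contralateral nerves can share a mouse, and the labels do not say which do. They were compared without a term for the mouse, and uncrushed nerves came from surgery controls (n = 3). In the second experiment, Dicer iKO nerves (P0-CreERT2 -/+, Dicer1 flox/flox) and Dgcr8 iKO nerves (P0-CreERT2 -/+, Dgcr8 flox/flox) were compared with P0-CreERT2 -/- controls that carried the same floxed alleles (n = 3 in each of the 4 groups). Mutants and controls all received tamoxifen, at 8 to 10 weeks of age, and were sampled 3 months post tamoxifen (mpT). Cre was driven by a promoter that acts in Schwann cells (SCs), so alleles in the other cells of the nerve were left intact. Because penetrance was incomplete, the study selected mutant nerves by their morphology.

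Gdnf, Artn and Nrtn belong to the GDNF family, whose members bind a GFRα co-receptor and signal through the tyrosine kinase Ret. Bdnf, Ntf3 and Ntf5 are neurotrophins, which are made as proproteins, are cut by proprotein convertases or plasmin, and bind Trk receptors and the low-affinity receptor Ngfr. Cntf is a cytokine of the interleukin-6 family that lacks a classical secretion signal and acts through Cntfr, Lifr and Il6st. Myelinating SCs are known as the main source of Cntf in intact peripheral nerves, while SCs that have lost axonal contact are known to make Gdnf.

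Total estimated counts ranged from 6617716 to 12806066 in the 11 crush libraries and from 5594859 to 10143244 in the 12 iKO libraries, so that 3 counts, taken as the lowest level shown, equalled 0.234 to 0.536 CPM, the count scaled to a fixed library size. Such limits and all counting intervals cover counting error only. The labels name different library kits for the crush and the iKO experiment, and levels were therefore tested only within an experiment. The summed CPM of 4 myelin genes, which mark the SCs of an intact nerve, was at least 9277 in all libraries but those at 3 dpc, where it was between 763 and 1130. Counts summed over a whole gene and all cells of the nerve could not check the deletions, and reads of the floxed exons were not examined. By PCR, the study reported less Dicer and Dgcr8 mRNA in the respective mutants, and less let-7f in both. Dicer1 was at 81.8 ± 0.414 CPM (SD, n = 3) in Dicer iKO and at 88.7 ± 1.66 CPM in control nerves, while Dgcr8 had 45.1 ± 7.83 CPM in its mutant nerves and 38.5 ± 3.19 CPM in the controls. In bulk tissue, fewer cells of a type and less RNA per cell cannot be told apart.

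The 7 ligands differed widely in level in uninjured nerves, and 1 of them made up nearly all of the group. On the FPKM scale, which divides by transcript length, Cntf took 98.9% to 99.3% of the summed ligand level in uncrushed nerves and 99.3% to 99.6% in contralateral nerves. Cntf stood at 281 ± 11.4 FPKM (SD, n = 3) in uncrushed nerves, between the 289th and 361st highest gene of each library. All the other ligands had group means below 0.6 FPKM there, with Nrtn at 0.57 ± 0.214, Gdnf at 0.533 ± 0.309, Bdnf at 0.42 ± 0.24, Ntf3 at 0.357 ± 0.125, Ntf5 at 0.293 ± 0.241 and Artn at 0.213 ± 0.244 FPKM. These 6 could not be ordered, since their ranges over the 3 libraries overlapped. At 3 dpc, as deposited, Gdnf took 90.4% to 94.1% of the summed ligand FPKM and Cntf 3.43% to 5.63%. Gdnf stood at 30.7 ± 8.98 FPKM (SD, n = 4), followed by Cntf at 1.32 ± 0.286 FPKM, with no overlap between them or with any other ligand. This order rests on the division of reads between Cntf and an overlapping transcript, Zfp91-203, described with Cntf. If every count of Zfp91-203 were given to Cntf, an upper limit computed after the values were seen, Cntf would be at 60.6 to 73.7 FPKM at 3 dpc and above Gdnf in 4 of 4 libraries, with 57.5% to 73.4% of the summed ligand FPKM. Artn at 0.385 ± 0.0742, Bdnf at 0.24 ± 0.086 and Ntf3 at 0.23 ± 0.0516 FPKM overlapped at 3 dpc and could not be ordered.

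Gdnf, the founding member of its family and a survival factor for motor neurons, rose strongly after crush. The gene lies at chr15:7810846-7837575 on the plus strand of GRCm38, and the files list 1 transcript for it. Its estimated counts were 1720, 1008, 1030 and 793 in the 4 libraries at 3 dpc. They were 13, 12, 12 and 13 in contralateral nerves, and 15, 10 and 20 in uncrushed nerves. Every library at 3 dpc was therefore far above every other crush library, while contralateral and uncrushed nerves overlapped. The normalised level of crushed nerves was 97.2 ± 28.3 CPM (SD, n = 4). Contralateral nerves had 1.18 ± 0.166 CPM (n = 4), and uncrushed ones 2.01 ± 1.22 CPM (n = 3). The third uncrushed library, the shallowest of the crush experiment, was at 3.42 CPM, and the other two were at 1.25 and 1.35 CPM. Mean levels thus differed 48.5-fold from uncrushed and 82.7-fold from contralateral nerves.

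Across all genes, calls were made by the quasi-likelihood test of edgeR, with p adjusted by Benjamini and Hochberg's method, at a fold change of at least 2 and an adjusted p of at most 0.05. Against uncrushed nerves, the log2 fold change of Gdnf was 5.82 (SE 0.32, edgeR adjusted p = 1.51e-08), the 20th highest of 17433 genes tested. Against contralateral nerves it was 6.39 (SE 0.24, edgeR adjusted p = 1.75e-11), the 18th highest of 16667. Of the 3 ligands that passed the filter on counts in the first comparison, 1 was called higher and 1 lower, beside 15.3% and 21.1% of all genes tested. Of the 2 that passed in the second, 1 was called higher and 1 lower, beside 14.6% and 13.6% of all genes tested. These 2 comparisons share the libraries at 3 dpc. Between contralateral and uncrushed nerves, Gdnf had a log2 fold change of -0.70 (SE 0.40, edgeR adjusted p = 0.378).

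**Figure D1:**
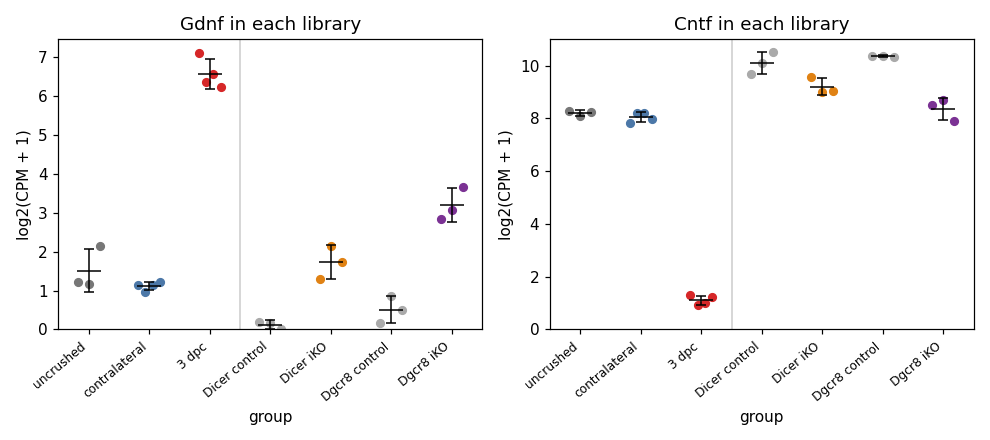
Normalised levels of Gdnf (left) and Cntf (right) as log2(CPM + 1), by group. Each point is 1 library, and bars give the mean and SD. The grey line divides the crush from the iKO experiment, which were normalised separately. Gdnf libraries at 3 dpc, from 74.7 to 138 CPM, sit above all the others, and Cntf libraries at 3 dpc, from 0.895 to 1.44 CPM, sit below all the others.

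The genes whose levels over the 11 crush libraries were most like those of Gdnf were sought among 16952 genes with a mean of at least 1 CPM, by the root mean square difference of centred log2(CPM + 1). The nearest was Atp6v0d2, a subunit of the vacuolar proton pump, with a difference of 0.292. Its level was 96.7 ± 16.5 CPM at 3 dpc, against 1.41 ± 0.219 in contralateral and 2.07 ± 1.19 in uncrushed nerves. Abca1, a cholesterol exporter, followed at 0.351, and Crabp2, a retinoic acid binding protein, at 0.357. The 5 macrophage markers examined were called higher at 3 dpc in both comparisons (Cd68, Adgre1, Csf1r, Aif1 and Itgam), with a summed level of 222 to 447 CPM against 33.1 to 63.2 CPM in contralateral and 49.5 to 53 CPM in uncrushed nerves. Neutrophil markers were called higher, 1 of 2 tested against uncrushed and 2 of 2 against contralateral nerves. In both comparisons 2 of 5 endothelial markers were called higher, and 1 of 5 fibroblast and 1 of 3 perineurial markers lower. Over all genes tested, 15.3% were called higher and 21.1% lower against uncrushed nerves, and 14.6% and 13.6% against contralateral nerves. A single call lower in a list of 3 or 5 genes is therefore no sign of a shift in that cell type. Of 4 neuronal genes, 1 was higher and 3 lower in both. Mast cell markers, tested against contralateral nerves only, were called lower, 3 of 3. Lymphocyte markers were called lower, 2 of 2 tested against uncrushed and 0 of 1 against contralateral nerves. The part of these cells in the level of Gdnf was not tested.

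Cntf, the most abundant of the ligands in uninjured nerves, was called lower after crush. It lies at chr19:12763660-12765632 on the minus strand of GRCm38, with 1 listed transcript. Its estimated counts were 3454, 2170 and 1758 in uncrushed nerves and 2402, 3744, 2930 and 2446 in contralateral nerves. At 3 dpc they were 18, 11, 11 and 14. No library at 3 dpc came near any of the uninjured ones, and uncrushed and contralateral nerves overlapped. Uncrushed nerves held 294 ± 20.2 CPM (SD, n = 3) of Cntf and contralateral nerves 266 ± 33.3 CPM (n = 4), and nerves at 3 dpc held 1.17 ± 0.258 CPM (n = 4). The log2 fold change against uncrushed nerves was -7.86 (SE 0.15, edgeR adjusted p = 2.57e-11), the lowest of 17433 genes. Against contralateral nerves it was -7.81 (SE 0.16, edgeR adjusted p = 2.91e-13), the 2nd lowest of 16667. Contralateral and uncrushed nerves differed by a log2 fold change of -0.15 (SE 0.11, edgeR adjusted p = 0.48). In that comparison, none of the 17722 genes tested was called, 0% of all, while 3165 had an unadjusted p below 0.05. DESeq2's Wald test called 31 genes there.

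The size of this fall depends on how reads were divided between Cntf and an overlapping transcript. Of the 1073 exon bases of the Cntf transcript, 847 (78.9%) are shared with Zfp91-203, a longer transcript of the neighbouring gene Zfp91 on the same strand, and 226 are its own. Zfp91-203 received 587 to 1482 counts in uncrushed nerves, 1214 to 1689 in contralateral nerves and 582 to 797 at 3 dpc, which was 28.1% of all Zfp91 counts at 3 dpc against 42.8% in contralateral nerves. In the iKO libraries it received at most 12.5 counts. When Cntf was counted together with Zfp91-203, an alternative chosen after the values were seen, the log2 fold change at 3 dpc was -2.67 (SE 0.10, edgeR adjusted p = 8.74e-10) against uncrushed and -2.71 (SE 0.09, edgeR adjusted p = 6.06e-12) against contralateral nerves. The fall was thus still called, at a smaller size, and Cntf was the 379th lowest of 17433 and the 415th lowest of 16667 genes. The iKO values of Cntf stayed at -0.92 and -1.97 under this count.

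**Figure D2:**
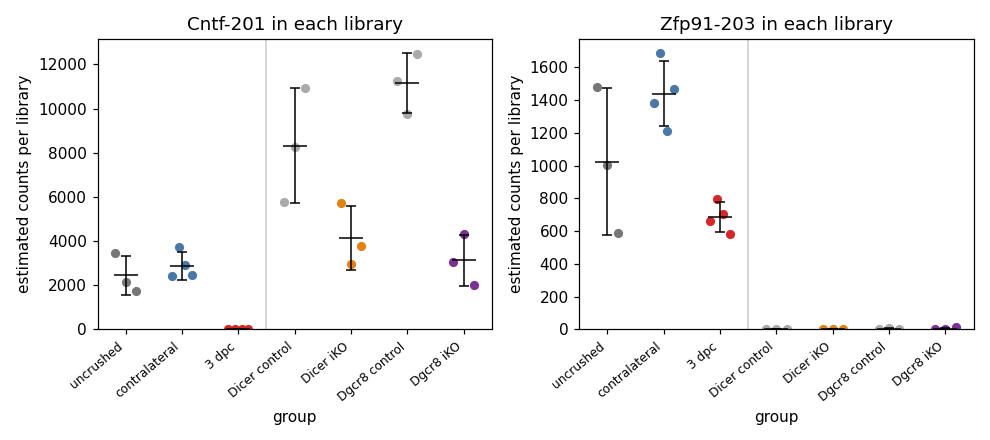
Estimated counts of the Cntf transcript (left) and of the overlapping Zfp91-203 (right) in each library, with group means and SD, on separate linear axes. At 3 dpc the Cntf transcript has 11.5 to 17.8 counts and Zfp91-203 has 582 to 797. The iKO libraries on the right of the grey line hold Cntf at 2033 to 12482 counts and Zfp91-203 at 0 to 12.5 counts.

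Genes most like Cntf in the crush libraries were Fa2h, which makes the hydroxylated fatty acids of myelin lipids, Ddn and Fam178b. Fa2h differed from Cntf by a root mean square of 0.224 and was at 296 ± 6.5 CPM in uncrushed, 341 ± 64.9 CPM in contralateral nerves and 1.64 ± 0.618 CPM at 3 dpc. Ddn and Fam178b followed at 0.255 and 0.383. The 4 genes reported as markers of myelinating SCs were called lower in both comparisons (Mbp, Pmp22, Prx and Mag), with log2 fold changes between -3.45 and -5.74 against uncrushed nerves. The fall of Cntf was larger than that of each of them as deposited, and smaller than that of each when counted with Zfp91-203. Of 4 markers of the SC lineage, 1 was called lower against uncrushed nerves (S100b) and 2 against contralateral nerves (Sox10 and S100b). Their summed level was 1071 to 1500 CPM at 3 dpc. It was 1859 to 2146 CPM in uncrushed and 2104 to 2656 CPM in contralateral nerves, without overlap with 3 dpc.

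Gdnf was called higher in both mutants, and Cntf was called lower in Dgcr8 iKO nerves. Gdnf had estimated counts of 11, 20 and 17 in Dicer iKO nerves against 1, 1 and 0 in their controls. In Dgcr8 iKO nerves it had 52, 77 and 101 counts against 1, 6 and 4. Every mutant library was above every control library in both. In normalised terms, Gdnf was at 2.42 ± 0.995 CPM (SD, n = 3) in Dicer iKO and 0.092 ± 0.0798 CPM in control nerves, where all 3 libraries were below the level of 3 counts. The Dgcr8 mutants had 8.42 ± 2.97 CPM and their controls 0.45 ± 0.351 CPM. The log2 fold change was 4.47 in Dicer iKO (SE 0.73, edgeR adjusted p = 0.00727) and 4.23 in Dgcr8 iKO (SE 0.47, edgeR adjusted p = 4.96e-05). As the control counts are so low, these sizes carry wide errors. In Dicer iKO nerves 1 of the 2 ligands tested was called higher, beside 7.37% of all genes, and none lower, beside 1.64%. In Dgcr8 iKO nerves 1 was called higher, beside 13.4%, and 1 lower, beside 6.99%. Gdnf passed the filter on counts only through the mutant libraries, where it was high. The ligands called higher therefore cannot be weighed against these shares. With at least 10 counts required in every sample, Gdnf was not tested in either mutant.

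Cntf counts were 5747, 2946 and 3761 in Dicer iKO nerves and 5761, 8241 and 10952 in their controls. They were 3041, 4329 and 2033 in Dgcr8 iKO nerves and 11271, 9774 and 12482 in controls. After normalisation the mutant and control libraries did not overlap in either, but in the Dicer pair they lay close together, with the highest mutant library at 765 CPM and the lowest control at 828 CPM. Cntf was called lower in Dgcr8 iKO nerves, with a log2 fold change of -1.97 (SE 0.21, edgeR adjusted p = 3.50e-05). In Dicer iKO nerves it was -0.92 (SE 0.25, edgeR adjusted p = 0.0361), under the fold limit. Without Dicer control replicate 1 or Dicer iKO replicate 1 it passed, at -1.10 (edgeR adjusted p = 0.0137) and -1.12 (edgeR adjusted p = 0.0279). Without Dicer control replicate 3 it was -0.68 (edgeR adjusted p = 0.0497). The edgeR adjusted p was 0.0984 without Dicer control replicate 2, 0.147 and 0.148 without Dicer iKO replicates 2 and 3, and 0.116 with the replicate block. Cntf stayed an abundant transcript in the mutants, between the 66th and 236th highest gene by FPKM, against the 24th to 77th in controls.

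The effects of both deletions were compared by fitting the 12 iKO libraries together with an interaction, and 2 of 13552 genes were called (0.0148%). Without Dicer control replicate 3, 401 genes were called. For Gdnf the Dgcr8 effect minus the Dicer effect was -0.27 on the log2 scale (SE 0.77, edgeR adjusted p = 0.906). For Cntf it was -1.05 (SE 0.34, edgeR adjusted p = 0.220), so that a larger fall in Dgcr8 iKO nerves was not shown. Without that library, the value for Cntf was -1.29 (edgeR adjusted p = 0.0472). The macrophage markers also rose in both mutants, with 4 of 5 called higher in Dicer iKO and 5 of 5 in Dgcr8 iKO nerves, at summed levels of 564 to 814 CPM and 407 to 774 CPM against 93.8 to 281 CPM and 97 to 117 CPM in their controls. Over all genes tested, 7.37% in Dicer iKO and 13.4% in Dgcr8 iKO nerves were called higher, and 1.64% and 6.99% lower. Of the 4 myelin markers, 3 were called lower in Dgcr8 iKO and none in Dicer iKO nerves. In Dicer iKO nerves their log2 fold changes were -0.89 to -0.41. Their summed levels there were 15350 to 20190 CPM against 21370 to 34890 CPM in controls, without overlap. Fibroblast markers were called higher too, 2 of 5 in Dicer iKO and 3 of 5 in Dgcr8 iKO nerves, with summed levels of 16640 to 17400 CPM and 12960 to 16120 CPM against 5345 to 14160 CPM and 6230 to 7914 CPM in their controls. Mast cell markers were called higher in Dgcr8 iKO nerves, 4 of 4, at 78.3 to 120 CPM against 7.46 to 41.4 CPM. In Dicer iKO nerves 0 of 4 were called, with log2 fold changes of 1.06 to 1.62. Their summed levels there were 228 to 312 CPM against 32.2 to 193 CPM in controls, also without overlap. Of the 5 neutrophil markers, 1 was tested and called higher in Dicer iKO nerves, and 2 were in Dgcr8 iKO nerves. Of 4 neuronal genes, 1 was called higher and 1 lower in Dicer iKO nerves, and 1 higher and 3 lower in Dgcr8 iKO nerves. Summed endothelial markers were at 150 to 165 CPM against 222 to 243 CPM in Dicer controls, with 0 of 5 called. In Dgcr8 iKO nerves they were at 155 to 209 against 232 to 269 CPM, with 1 called lower. Perineurial sums were 486 to 625 against 721 to 1441 CPM (Dicer, 1 of 3 called lower) and 421 to 531 against 554 to 890 CPM (Dgcr8, 1 called higher). None of these sums overlapped their controls. The part of these cells in the values of Gdnf and Cntf was not tested.

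**Figure D3:**
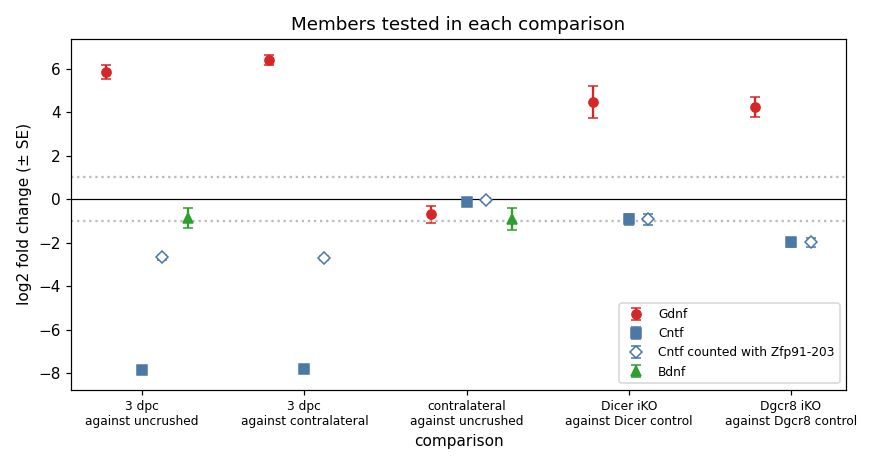
Log2 fold change with its standard error (edgeR) for each ligand that passed the filter on counts, in 5 comparisons. Filled squares give Cntf as deposited and open diamonds Cntf counted with Zfp91-203, and dotted lines mark the 2-fold limit. Gdnf is above the limit in the 2 crush and the 2 iKO comparisons, at 4.23 to 6.39, and the 2 counts of Cntf part only in the comparisons of nerves at 3 dpc.

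Because Dicer and Dgcr8 are both needed to make microRNAs, the annotated 3′ UTRs of the 7 ligands were searched for the reverse complement of bases 2 to 8 (the seed) of 7 microRNAs named by the study as abundant in SNs. The longest annotated 3′ UTR was 2743 bases for Gdnf and 238 bases for Cntf. Gdnf held 1 match, to miR-22-3p, and Cntf, Artn, Ntf3 and Ntf5 held none. The microRNA and its match in Gdnf are shown because Gdnf was the ligand called higher in both mutants, with the seed and its match in capitals. The 26 bases shown lie at chr15:7835055-7835080, and the match within them starts at position 234 of the 3′ UTR. Of 21028 genes with an annotated 3′ UTR, 12.8% held this match, and 3310 had a longer 3′ UTR than Gdnf. The share is over 3′ UTRs of every length and was not matched to that of Gdnf. MicroRNAs and promoters are from RefSeq, and sites are from GENCODE transcripts.
mmu-miR-22-3p: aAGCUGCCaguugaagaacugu
Gdnf: cacttcagggtGGCAGCTgatgtcac

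Bdnf, whose 3′ UTR has 2855 bases, held matches to miR-27b-3p, miR-26a-5p, miR-181a-5p and the shared seed of miR-10a-5p and miR-10b-5p, and Nrtn held 1 to let-7f-5p. These occur in 9.02% (let-7f-5p) to 16.4% (miR-181a-5p) of genes, shares that were not matched to length. Bdnf had the longest 3′ UTR of the 7 ligands, and 3071 of 21028 genes had a longer one. The miR-10 microRNAs, shown with their common seed in capitals, and the Bdnf site they share are given below, since Bdnf had the most matches of the 7. The 26 bases shown around that site lie at chr2:109724200-109724225. A match of letters is no measured site.
mmu-miR-10a-5p: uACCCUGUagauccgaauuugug
mmu-miR-10b-5p: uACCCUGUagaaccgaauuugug
Bdnf: atatatacataACAGGGTaaattatt

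Promoter windows were held by RefSeq for 6 of the 7 ligands, 14 windows in all. The 250 bases before the start were searched on both strands for 3 motifs. The first was TGANTCA, which binds AP-1, the dimer that Jun forms with its partners. The second was the SOX core ACAAAG, found in 1 window of Bdnf and in 16.5% of all windows. The third was the TATA box, with the letters TATAAA. AP-1 letters were found upstream of Cntf and of 1 of 7 Bdnf starts, and in 6.75% of all 32851 windows. Neither window of Gdnf held them. The first Gdnf window held a TATA box, as did 12.4% of all windows, with its first base 31 bases before the start. That RefSeq start lies upstream of the GENCODE start of Gdnf at chr15:7810846, and the second Gdnf window lies within the GENCODE gene. The first Gdnf window (chr15:7809798-7810047, plus strand) and the Cntf window (chr19:12765633-12765882, minus strand) are given on GRCm38.p6. They are shown as those of the ligands that moved most, with the TATA box and the AP-1 letters in capitals.
Gdnf: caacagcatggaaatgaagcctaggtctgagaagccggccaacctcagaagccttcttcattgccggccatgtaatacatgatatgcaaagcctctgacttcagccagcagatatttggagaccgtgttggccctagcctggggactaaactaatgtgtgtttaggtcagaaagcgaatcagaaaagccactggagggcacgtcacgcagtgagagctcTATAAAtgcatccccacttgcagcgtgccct
Cntf: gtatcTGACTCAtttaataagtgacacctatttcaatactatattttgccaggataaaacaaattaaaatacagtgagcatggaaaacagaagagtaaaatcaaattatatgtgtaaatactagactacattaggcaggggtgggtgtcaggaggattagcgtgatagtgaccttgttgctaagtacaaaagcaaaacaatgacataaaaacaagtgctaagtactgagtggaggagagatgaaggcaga

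The other 5 ligands were near the detection limit, and most did not pass the filter on counts. Bdnf, the ligand of TrkB, lies at chr2:109674700-109727007 on the plus strand with 11 listed transcripts. Its counts were 11, 6, 9 and 13 at 3 dpc, 6, 7, 11 and 14 in contralateral nerves, and 10, 11 and 18 in uncrushed nerves. All 3 groups overlapped. The log2 fold change at 3 dpc against uncrushed nerves was -0.85 (SE 0.46, edgeR adjusted p = 0.122), and without uncrushed replicate 1 it was -1.17 (edgeR adjusted p = 0.0467), past the threshold. Without uncrushed replicate 3 it was -0.28 (edgeR adjusted p = 0.614). Between contralateral and uncrushed nerves it was -0.89 (SE 0.50, edgeR adjusted p = 0.370). Bdnf was at 0 to 7 counts in every iKO library and was not tested there.

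Artn, which binds Gfra3, lies at chr4:117926162-117929763 on the minus strand. In Dgcr8 iKO nerves it had 10, 4 and 1 counts, against 0 in each of the 3 controls, which is at least 5-fold higher in the summed counts (3 counts over the group taken as the floor). It did not pass the filter, and with no filter on counts it was called higher (edgeR adjusted p = 0.0179). In Dicer iKO nerves it had 0, 2 and 2 counts against 1, 0 and 0. Its counts at 3 dpc were 3, 7, 4 and 7, within reach of 2, 4, 0 and 4 in contralateral and 4, 1 and 0 in uncrushed nerves, so a difference after crush was not detectable at this depth.

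Nrtn, the ligand of Gfra2 (chr17:56751325-56757530, minus strand), had 1 count in each of the 4 libraries at 3 dpc, 6, 5, 2 and 0 in contralateral and 9, 3 and 3 in uncrushed nerves. With no filter on counts it was called lower at 3 dpc against uncrushed nerves, with a log2 fold change of -2.29 (edgeR adjusted p = 0.0264), and not against contralateral nerves (-1.50, edgeR adjusted p = 0.233). In the Dicer experiment it had 2 counts in each mutant library and 7, 9 and 3 in the controls, and was not called (-1.51, edgeR adjusted p = 0.217 with no filter). Ntf5, the second TrkB ligand (chr7:45413695-45417179, plus strand), had 2, 0, 2 and 0 counts at 3 dpc and 4, 2 and 7 in uncrushed nerves, and was likewise called lower only with no filter (-2.19, edgeR adjusted p = 0.0458). Against contralateral nerves, which had 1, 6, 2 and 4 counts, it was not called (-1.51, edgeR adjusted p = 0.233). Ntf3, the ligand of TrkC (chr6:126101412-126166910, minus strand), had 0 to 4 counts in all 23 libraries and was called in no comparison. Over all libraries, Ntf3 and Ntf5 had 39 counts each, against 4937 for Gdnf and 99296 for Cntf.

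**Figure D4:**
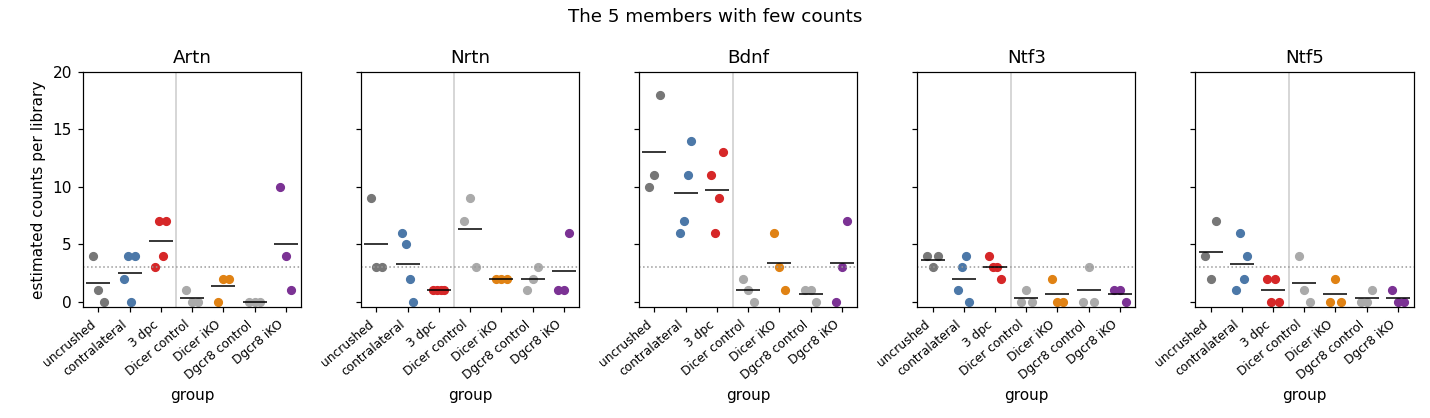
Estimated counts in each library for the 5 ligands with few counts, by group, on 1 linear axis, with a bar at each group's mean. The dotted line marks 3 counts, taken as the detection floor. Only Bdnf reaches 18 counts, in an uncrushed library, and Artn reaches 10 counts in a Dgcr8 iKO library while all 3 of its controls are at 0.

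Other ligands of the same pathways were examined from a list of 11. At 3 dpc, 6 were tested in each comparison, and the same 2, Clcf1 and Manf, were called higher in both, beside 15.3% and 14.6% of all genes, with none lower. The median log2 fold change was 0.67 against uncrushed nerves, beside -0.03 over all genes tested. Clcf1, a cytokine that acts through Cntfr, rose the most. It went from 1.01 ± 0.157 CPM in uncrushed and 1.06 ± 0.303 CPM in contralateral nerves to 135 ± 44.4 CPM at 3 dpc, a log2 fold change of 7.11 against uncrushed nerves (SE 0.33, edgeR adjusted p = 3.78e-09). So Clcf1 rose in the nerves where Cntf fell. It passed the filter on counts only through the libraries at 3 dpc, where it was high. The calls higher and the median of this list at 3 dpc therefore cannot be weighed against all genes. Lif, a related cytokine, was under the fold limit in both comparisons (0.68 and 0.44). Clcf1 was also called higher in both mutants, by 1.91 in Dicer iKO and 2.25 in Dgcr8 iKO nerves. In all, 2 of 8 were called higher in Dicer iKO and 3 of 8 in Dgcr8 iKO nerves, beside 7.37% and 13.4% of all genes, and none lower.

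Of 14 receptors and co-receptors, 11 were tested against uncrushed nerves, with 4 called higher and 3 lower, beside 15.3% and 21.1% of all genes. Against contralateral nerves 12 were tested, with 4 higher and 5 lower, beside 14.6% and 13.6%. Gfra1, the co-receptor that binds Gdnf, was called higher, from 145 ± 10.5 CPM in uncrushed nerves and 161 ± 5.23 CPM in contralateral nerves to 1003 ± 98.7 CPM at 3 dpc (2.90, SE 0.13, edgeR adjusted p = 1.88e-09). Ret, the signalling partner, was at 3.89 ± 0.863 CPM at 3 dpc. It was called lower against contralateral nerves (-1.14, SE 0.23, edgeR adjusted p = 0.000609) and fell short of the fold limit against uncrushed nerves (-0.82, edgeR adjusted p = 0.00637). Ngfr, the low-affinity neurotrophin receptor, was called higher in all 4 comparisons of injured or mutant nerves. It rose by 5.05 and 4.66 after crush, 1.37 in Dicer iKO and 2.43 in Dgcr8 iKO nerves. Cntfr, the binding subunit for Cntf, was called lower at 3 dpc, at 0.857 ± 0.254 CPM against 3.51 ± 0.551 CPM in uncrushed nerves (-1.92, SE 0.30, edgeR adjusted p = 0.000125). Il6st, which transmits the signal of Cntf and its relatives, and Sorcs2 were called higher. Ntrk3 (TrkC) and Sort1, a receptor for proneurotrophins, were called lower. Ntrk2 (TrkB) was under the fold limit, at 0.51 and 0.46. In the mutants Gfra1 had log2 fold changes of 0.03 in Dicer iKO and 0.28 in Dgcr8 iKO nerves, and neither was called.

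Of 10 genes for cutting proneurotrophins, 7 were tested in each comparison. At 3 dpc the convertase Furin, the plasminogen activators Plat and Plau and the gelatinase Mmp9 were called higher, and the convertases Pcsk5 and Pcsk6 lower, in both comparisons, so that 4 of 7 were higher, beside 15.3% and 14.6% of all genes, and 2 of 7 lower, beside 21.1% and 13.6%. Plau was called higher in both mutants as well (2.32 and 3.75) and Pcsk6 lower (-1.23 and -1.66). Mmp9 was called higher after crush, by 3.86 and 4.47, and lower in Dicer iKO (-2.71) and Dgcr8 iKO nerves (-1.19). Of 10 regulators of the SC state, Jun, Sox2, Pou3f1 and Atf3 were called higher and Egr2, the factor that drives myelination, lower in both crush comparisons. In all, 4 of 10 were higher against uncrushed and 5 of 10 against contralateral nerves, beside 15.3% and 14.6% of all genes. Against the same nerves 1 of 10 and 2 of 10 were lower, beside 21.1% and 13.6%. Jun, which SCs need for the repair response, was at 193 ± 22 CPM at 3 dpc against 26.5 ± 3.43 CPM in uncrushed nerves (2.96, SE 0.14, edgeR adjusted p = 3.87e-09), and was called higher in Dicer iKO (1.01) and Dgcr8 iKO nerves (1.54). Between contralateral and uncrushed nerves, none of the genes tested from these 4 lists was called.

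**Figure D5:**
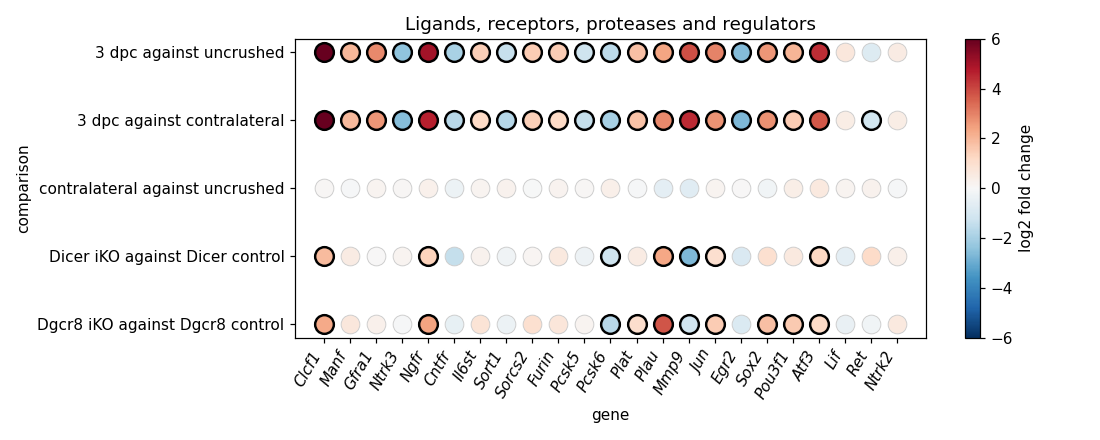
Log2 fold change (colour) of genes from the lists of ligands, receptors, proteases and regulators that were called in both comparisons of nerves at 3 dpc, and of Lif, Ret and Ntrk2, in 5 comparisons. Black rims mark calls, and colours stop at 6. Clcf1 is called higher in the 2 crush and 2 iKO comparisons, while Gfra1 is called in the crush comparisons only.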

How the data were processed

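Total RNA of 23 SN libraries was analysed, grouped by the sample labels. The authors trimmed the reads (Trimmomatic), mapped them to GRCm38 (STAR) and estimated the level of each Ensembl transcript (RSEM). The deposited estimated counts per transcript, without normalization, were summed per gene, rounded and used for all tests. The authors' FPKM values, which take length and depth into account, were summed per gene to order the ligands. The authors' TPM values keep the same order within a library and were not printed. Symbols and positions are from GENCODE M21.

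The ligands and gene lists were chosen with earlier results of these data known. For each pair of groups, genes kept by filterByExpr (minimum count 10) were normalised by TMM and tested by edgeR 4.0.16 (R 4.3.3, quasi-likelihood test, Benjamini-Hochberg adjustment). Calls needed a fold change of at least 2 and an adjusted p of at most 0.05, and the interaction term the adjusted p alone. SE was obtained from the log2 fold change and the square root of F. CPM values (counts scaled to library size) are TMM-normalised over an experiment. The test was checked on simulated data. List genes are named where called in both comparisons of nerves at 3 dpc, with Ret, Gfra1, Ntrk2, Cntfr, Lif and Jun named in any case. Some listed genes are not reported here, and list counts and sums are over the others.

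Alternatives were RLE normalization, no filter, at least 10 counts in every sample, the replicate number as a block, DESeq2 1.42.0 (Wald test), all groups of an experiment in one fit, protein-coding genes only, each replicate left out, and, chosen after seeing the data, Cntf counted with Zfp91-203. Replicates of a group are separate mice per the study's methods. Over 27 pairs of replicates the chi-square per degree of freedom was at least 4.36, so none was a copy. The title of 1 uncrushed library gives replicate 3 and its description 4, so the number in the title stands. For the crush libraries the labels give a SMARTer pico kit, while the study's methods name TruSeq for all. Both kits mark strand.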

Additional observations from a re-analysis of the deposited data

How the results depend on the processing

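Of 204 alternative values of the log2 fold changes of Gdnf, Cntf and Bdnf, 197 kept direction and side of the threshold. The Gdnf interaction value, -0.27, changed sign to 0.37, 0.26 and 0.06 when Dgcr8 control replicate 2, Dicer control replicate 3 or Dicer iKO replicate 2 was left out, at edgeR adjusted p of 0.962, 0.964 and 0.983, and ranged from -0.70 to 0.37 over all replicates left out. The cause was not tested. With no filter on counts, 4 ligands were called at 3 dpc against uncrushed nerves, where Nrtn and Ntf5 are then tested, and 141 genes between contralateral and uncrushed nerves. With at least 10 counts in every sample, Gdnf was no longer tested in the iKO experiment, and 0 ligands were called in Dicer iKO and 1 in Dgcr8 iKO nerves. Between contralateral and uncrushed nerves, DESeq2 called 31 genes, 1 fit of all groups 1 gene and a fit of protein-coding genes 1 gene. In the interaction, against 2 genes in all, RLE normalization called 1 and no filter 20.

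Each replicate left out in turn gave 1 to 2 ligands called in Dicer iKO nerves, 0 to 1 in the interaction (0 to 401 of all genes, with 401 without Dicer control replicate 3 and 5 without Dgcr8 control replicate 3), and 2 to 3 at 3 dpc against uncrushed nerves. It gave 0 to 95 genes called between contralateral and uncrushed nerves, with 95 without uncrushed replicate 2 and 30 without uncrushed replicate 1. It gave 572 to 1411 genes called in Dicer iKO nerves, against 1175 with all libraries, with 704 without Dicer control replicate 2, 623 without Dicer iKO replicate 2 and 572 without Dicer iKO replicate 3.

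Whether replicate numbers pair the samples was not settled. The correlation of deviations between same-numbered libraries ranged from -0.193 to 0.219 and was not above 0.1 in every pair of any comparison. Such weak correlations over few pairs cannot exclude a shared mouse. Against contralateral nerves, the SE of Gdnf at 3 dpc was 0.13 with the replicate number as a block and 0.24 without. With the replicate block, 6 genes were called between contralateral and uncrushed nerves and 640 in Dicer iKO nerves, 0 in the interaction, and no call of a ligand changed. Depth limits Artn, Nrtn, Ntf3 and Ntf5, which had 3 counts or fewer in 15, 17, 19 and 18 of 23 libraries.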
